A study of Mus musculus with 6 samples.

Results

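Cadherins and protocadherins were examined in bladder cells of newborn mice, as every probe set whose single gene symbol on the array's annotation was Cdh followed by a number alone or began with Pcdh. This gave 101 of 45037 probe sets and 56 of 18193 genes. The cells came from male FVB/N mice at postnatal day 2 with 2 transgenes, which drive EGFP from the SMGA (smooth muscle gamma actin) promoter and EYFP from the SMAA (smooth muscle alpha actin) promoter, from matings of an EYFP with an EGFP line. Cells with both reporters (double-positive, 3 arrays) were compared with cells that had EGFP and no EYFP (single-positive, 3 arrays), each from 1 unpooled sample, and the labels place both in the detrusor, the bladder's muscle. Both groups therefore share the transgenes, the strain, the sex and the EGFP signal used in the sort, and each reporter marks cells by the promoter of a transgene and not by the endogenous gene. Whether the 3 samples of 1 kind stem from different animals is not given in the labels. The p-values therefore reflect only how much these samples vary, and part of that may be technical.

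Cadherins are calcium-dependent adhesion molecules of the cell surface. The extracellular repeats of a classical cadherin bind a cadherin of the neighbouring cell, and its cytoplasmic tail binds catenins that link the contact to actin. Type I members such as E-cadherin and N-cadherin mark epithelium and mesenchyme or nerve, type II members include the cadherin of blood vessel endothelium and that of loose mesenchyme, and protocadherins have longer extracellular parts, bind more weakly and are best known from the nervous system. The clustered protocadherins lie in arrays of neighbouring genes, from which single neurons use a few.

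Each probe set gave 1 signal intensity per array, in arbitrary units that cannot be compared between probe sets. Differences below, double-positive minus single-positive, are in log2(signal + 25.042), so that those of dim genes come out too small, and they are given with the standard error (SE) of the limma fit. Tests ran on the 27022 probe sets with a mean log2 value above 6.82, the 40th percentile, and p-values were adjusted over all of them with a threshold of 0.05. Of the 101 probe sets 57 were tested, for 41 of the 56 genes, and 44 were not, among them all those of 15 genes.

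The arrays showed 1 point that touches every result here. Actg2, the gene behind the EGFP promoter, had a signal of 10595 ± 3281 (SD, n = 3) in double-positive arrays, against 60131 ± 8405 (SD, n = 3) in the single-positive ones, and the brightest Acta2 probe set, that of the gene behind EYFP, had 59801 ± 11165 against 62346 ± 9277. The other Acta2 probe sets gave log2 differences of -4.31 (SE 0.31, limma adjusted p = 0.000483) and -3.07 (SE 0.78, limma adjusted p = 0.0765). The arrays labelled positive for both reporters thus had no higher signal of either reporter's gene than those labelled EYFP negative, and every direction here rests on the labels. Of 10 smooth muscle markers 9 fell in the double-positive arrays and Acta2 did not pass, of 12 leukocyte markers 11 fell, and of 8 fibroblast markers none passed. None of these markers rose. No marker was at 0 on any array. The Actb control had a 3' to 5' signal ratio of 2.78 to 8.02 in double-positive arrays, against 3.23 to 5.97 in single-positive ones. This ratio is a rough sign of RNA integrity, taken here after 2 rounds of amplification, and does not measure integrity alone. In such sorted bulk samples, fewer cells of a type and less RNA per cell cannot be told apart.

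E-cadherin (Cdh1), VE-cadherin (Cdh5), R-cadherin (Cdh4) and Pcdh20 fell, by 4.17-fold to 11.5-fold in mean signal, and no member rose in cells with both reporters. The mesenchymal cadherin Cdh11 and the protocadherins Pcdh18 and Pcdh19 showed small differences. These 4 are 7.02% of the 57 tested probe sets, where 2.42% of all tested probe sets were lower past the threshold, and the 0 that rose stand beside 1.01% of all tested. At an unadjusted p under 0.05 in limma, 11 of the 57 were lower and 1, Pcdhb8, was higher. The share of all tested probe sets at this cut-off was not counted, so these counts have nothing to be set against. The 11 include the dimmer Cdh3 probe set. The double-positive group lay wholly below the single-positive group for 11 of the 57 (19.3%, against 10.1% of all tested) and wholly above it for 1 (1.75%, against 8.57%). Both group means were above the filter for 51 of the 57, the 4 that fell included, while Cdh17, Cdh26, Pcdh15, Pcdhb2, Pcdhb8 and the dimmer Cdh3 probe set were tested only through the group where they were high. Among the 51, groups without overlap were lower for 10 and higher for 0, against 9.34% and 8.33% of all probe sets of this kind. The median difference of the 57 was -0.22, beside 0.02 over all probe sets tested. With single-positive array 2 or 3 left out, the 4 became 2, Cdh1 and Cdh5.

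**Figure D1:**
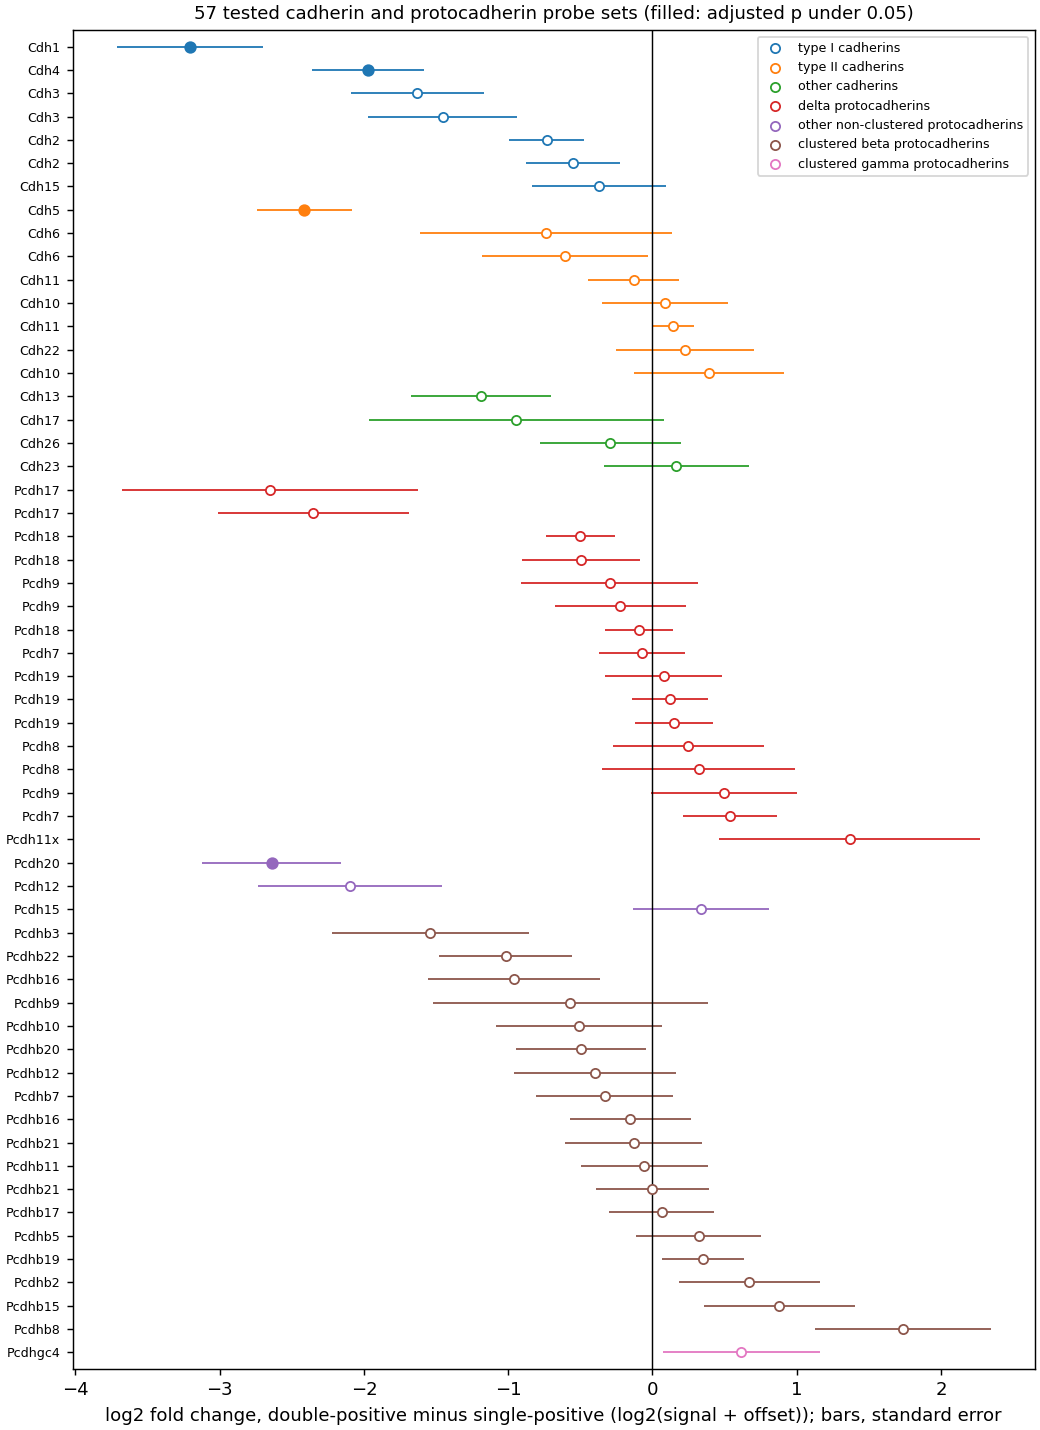
Log2 fold change (double-positive minus single-positive) with its standard error for the 57 tested cadherin and protocadherin probe sets, coloured by class, 1 row each. Filled points passed an adjusted p of 0.05: they are Cdh1, Cdh4, Cdh5 and Pcdh20, all left of 0, while the clustered protocadherins lie on both sides of 0 between -1.54 and 1.74.

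The type I cadherins were the class in which every tested probe set had a lower value. All 5 genes were tested, with 7 probe sets whose differences ran from -3.21 to -0.37. Over the 6 with both group means above the filter, of which 2 are of Cdh2, the median was -1.18. The double-positive group lay wholly lower for 4 of them, where it did for 9.34% of all probe sets of this kind. Cdh1 encodes E-cadherin, the adhesion molecule of epithelial junctions. Its signal was 87.4, 71.5 and 184 in the double-positive arrays, against 991, 769 and 2191 in the single-positive arrays. Every double-positive array was low, and single-positive array 3 was the highest. The mean was 11.5-fold lower, 114 ± 60.8 against 1317 ± 765 (SD, n = 3 each), with a log2 difference of -3.21 (SE 0.51, limma adjusted p = 0.00995). The call held without any 1 array, with adjusted p of 0.0472 at most.

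Cdh4 encodes R-cadherin, which was first described in the retina and is also made in developing muscle, kidney and nerve. On its brightest probe set the signal was 318, 194 and 173 in the double-positive arrays, against 962, 751 and 1139.8 in the single-positive arrays. The groups were well apart, with little spread within the single-positive group. The log2 difference was -1.97 (SE 0.39, limma adjusted p = 0.0269). This call was less firm, since the adjusted p was 0.0627 without double-positive array 2, 0.0514 without double-positive array 3, and 0.102, 0.0724 and 0.129 without single-positive arrays 1, 2 and 3. It was also lost with no filter (limma adjusted p = 0.0501) and with the replicate number as a block (limma adjusted p = 0.0504). The mean over its probe sets did not pass either, with a log2 difference of -1.07 (limma adjusted p = 0.158). The other probe sets of Cdh4 were too dim to be tested, and 1 of them was lower without overlap.

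Cdh3, P-cadherin of basal epithelial layers, lies next to Cdh1 in the order of genes on mouse chromosome 8, and it was singled out after its values were seen. On its brighter probe set the signal was 179.8, 238 and 78.4 in the double-positive arrays, against 435, 489 and 673 in the single-positive arrays. On its dimmer one it was 74.3, 77.7 and 49.4, against 302, 101 and 355. The groups did not overlap on either, and neither passed. The dimmer one was tested only through its single-positive values, so its lower value is a description and adds no support. Their log2 differences were -1.63 (SE 0.46, limma adjusted p = 0.114) and -1.45 (SE 0.52, limma adjusted p = 0.227).

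Cdh2, N-cadherin of mesenchyme, nerve and muscle, showed smaller differences on brighter signals. One probe set had 3786, 2862 and 5682 in the double-positive arrays, against 7252, 3949 and 6773 in the single-positive arrays, and these overlap. The other had 1246, 1179.9 and 1222, against 2241, 1915 and 1976, with tight values in each group and no overlap. Neither passed, with log2 differences of -0.55 (SE 0.33, limma adjusted p = 0.554) and -0.73 (SE 0.26, limma adjusted p = 0.227). Cdh15, M-cadherin of skeletal muscle precursors, had -0.37 (SE 0.47) and overlapping groups. Of 6 tested skeletal muscle markers 2 fell, Ckm and Tnnt3, none rose and 4 did not pass. Of these 4, Mylpf had 0.88 (SE 0.66) and Actn3 0.56 (SE 0.39), while Myod1 and Myog had values below 0. Among those too dim to be tested, Myf5 lay wholly higher and Pax7 wholly lower in the double-positive arrays.

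Among type II cadherins 1 of 8 tested probe sets fell, 7 did not pass and none rose. Cdh5 encodes VE-cadherin, the adhesion molecule of endothelial junctions. Its signal was 877, 1312 and 616 in the double-positive arrays, against 5999.6, 4245 and 4511 in the single-positive arrays. The highest double-positive value was far below the lowest single-positive one. The mean was 5.26-fold lower, 935 ± 352 against 4918 ± 946 (SD, n = 3 each), with a log2 difference of -2.41 (SE 0.33, limma adjusted p = 0.0050). It passed without any 1 array, with adjusted p of 0.0296 at most, and its other probe set was too dim to be tested.

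Cdh11, a cadherin of mesenchyme and bone-forming cells, is the direct neighbour of Cdh5 in the gene order of mouse chromosome 8. Its signal was 31676, 29156 and 37334 in the double-positive arrays, against 32218, 26908 and 29559.9 in the single-positive arrays. The groups overlapped, and all 6 values were within a narrow range. The log2 difference was 0.14 (SE 0.15, limma adjusted p = 0.783), and a dimmer probe set had -0.13 (SE 0.32). Cdh10, a cadherin described mainly in nerve cells, had 2269.8, 1124 and 1722 in the double-positive arrays, against 517, 1958 and 1860.3 in the single-positive arrays. Single-positive array 1 was low, and the difference of 0.39 (SE 0.52) turned to -0.22 without it.

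**Figure D2:**
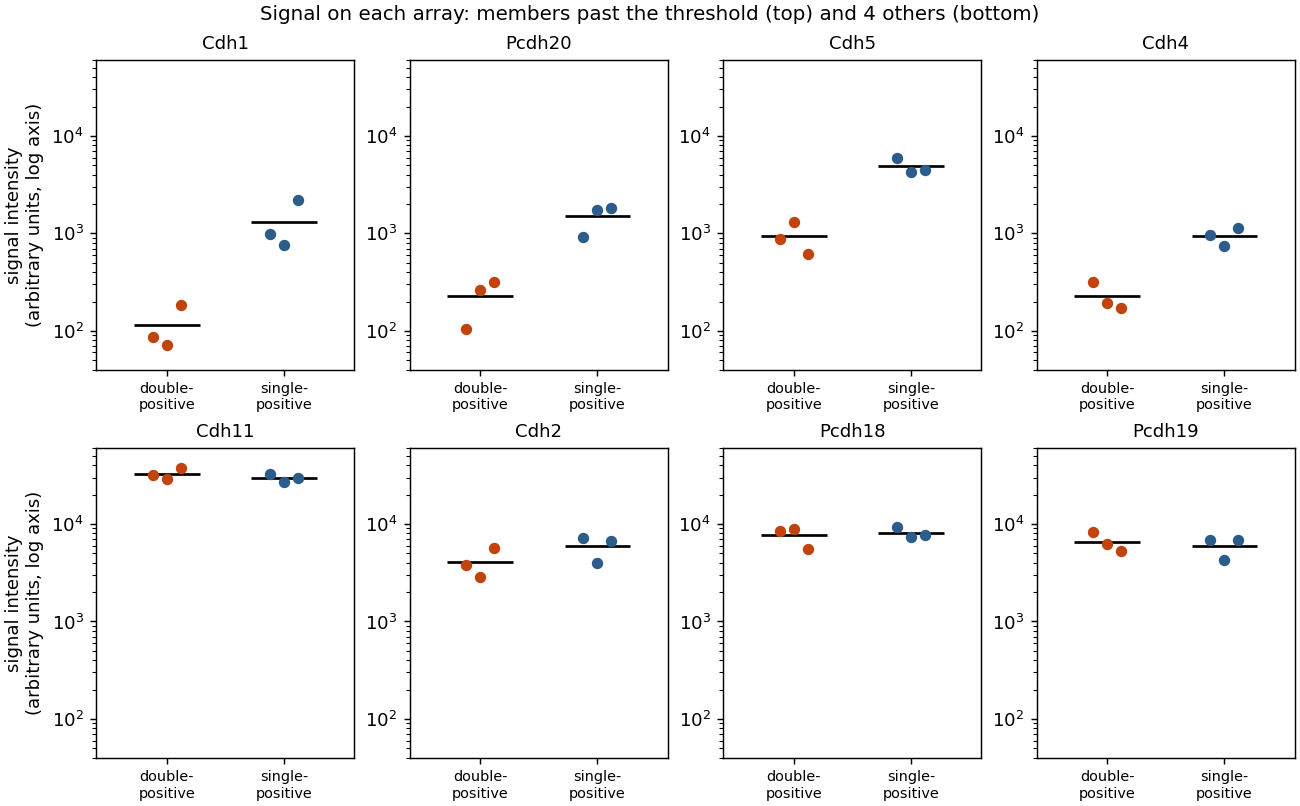
Signal intensity (arbitrary units, log axis) on each array for Cdh1, Pcdh20, Cdh5 and Cdh4 (top) and for the brightest probe sets of Cdh11, Cdh2, Pcdh18 and Pcdh19 (bottom), double-positive arrays in orange and single-positive arrays in blue, with the mean as a bar. In the top panels the groups do not overlap, and in the bottom panels they do.

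Markers of the cell types that these cadherins are known from differed between the same arrays. The tested markers include a few that passed the filter only through the single-positive arrays, where they were high. Of 14 endothelium markers (Cdh5 is not among them) 4 fell, Esam, Sox17, Lyve1 and Cldn5, none rose and 10 did not pass, and all 4 had both group means above the filter. Of the 14, 13 had a value below 0, and Eng had 0.25 (SE 0.27). Summed over the 14, the signal ran from 11566 to 17517 over the double-positive arrays, against 42417 to 50281 over the single-positive ones. Such sums are weighted to the brightest probe sets. Lyve1 alone had 919, 3757 and 2600 in the double-positive arrays, against 20282, 24367 and 18002 in the single-positive ones. Of 15 tested urothelium markers 7 fell, none rose and 8 did not pass, and 5 of the 7 had both group means above the filter. The summed signal of all 16 listed ran from 5608 to 9793 over the double-positive arrays, against 29126 to 47905 over the single-positive ones. The part of these cell types in the values of Cdh5, Cdh1 and Cdh3 was not tested.

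**Figure D3:**
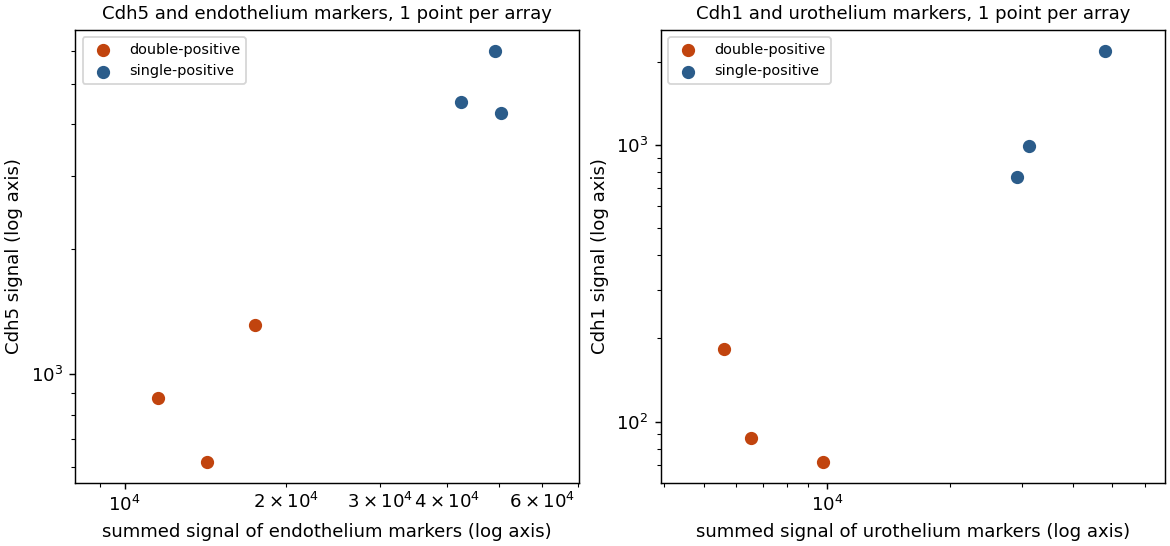
Signal of Cdh5 against the summed signal of 14 endothelium markers, and of Cdh1 against that of 16 urothelium markers, both on log axes in arbitrary units, 1 point per array (double-positive orange, single-positive blue). In each panel the 3 double-positive arrays lie low on both axes and the 3 single-positive arrays high. Within the groups the order is not the same on both axes. Single-positive array 3 is highest for both Cdh1 and the urothelium sum (47905). Double-positive array 2 has the highest urothelium sum of its group (9793) and the lowest Cdh1 (71.5). Single-positive array 2 has the highest endothelium sum (50281) and the lowest Cdh5 of its group (4245).

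The cadherins outside these types gave no call in 4 tested probe sets. Cdh13 encodes T-cadherin, which is anchored by a lipid and has no cytoplasmic tail. It had 187, 607 and 678 in the double-positive arrays, against 949, 938 and 1161 in the single-positive arrays. The groups did not overlap, and the log2 difference was -1.19 (SE 0.49, limma adjusted p = 0.317). Cdh17, a cadherin of liver and intestine, ranged from 11.9 to 271 in double-positive and from 13.5 to 403 in single-positive arrays, with array 1 low in each group. Cdh23, a component of the tip links of hair cells in the inner ear, had overlapping groups and a log2 difference of 0.16 (SE 0.50).

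Among the protocadherins that stand outside the gene clusters, Pcdh20 fell, and Pcdh17 and Pcdh12 had lower values that did not pass. In the gene order of mouse chromosome 14, Pcdh20 and Pcdh17 have 2 protein-coding genes between them, and Pcdh9 directly follows Pcdh20. In bases Pcdh20 and Pcdh17 lie far apart, as the positions below show. Their promoters, 250 bases before to 50 after the annotated start, are shown with that of Pcdh18, which gave a bright signal and only small differences, to set the starts of members with large and with small differences side by side. The sequences are those of RefSeq on GRCm38.p6, 5' to 3' on the gene's strand, with CCAAT or its reverse complement ATTGG in capitals.
Pcdh20, chr14:88471347-88471646, minus strand: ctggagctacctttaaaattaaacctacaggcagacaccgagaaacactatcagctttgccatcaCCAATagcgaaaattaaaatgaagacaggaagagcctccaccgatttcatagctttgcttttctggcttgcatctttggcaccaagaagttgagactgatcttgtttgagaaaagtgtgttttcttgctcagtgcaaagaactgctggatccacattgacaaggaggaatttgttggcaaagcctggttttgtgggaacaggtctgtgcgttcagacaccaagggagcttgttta
Pcdh17, chr14:84443313-84443612, plus strand: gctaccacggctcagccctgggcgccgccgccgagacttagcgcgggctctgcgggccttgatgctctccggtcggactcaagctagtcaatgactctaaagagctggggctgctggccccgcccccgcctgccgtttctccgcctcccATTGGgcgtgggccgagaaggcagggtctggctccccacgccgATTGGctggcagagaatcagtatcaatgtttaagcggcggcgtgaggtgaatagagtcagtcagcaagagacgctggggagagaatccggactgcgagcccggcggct
Pcdh18, chr3:49757267-49757566, minus strand: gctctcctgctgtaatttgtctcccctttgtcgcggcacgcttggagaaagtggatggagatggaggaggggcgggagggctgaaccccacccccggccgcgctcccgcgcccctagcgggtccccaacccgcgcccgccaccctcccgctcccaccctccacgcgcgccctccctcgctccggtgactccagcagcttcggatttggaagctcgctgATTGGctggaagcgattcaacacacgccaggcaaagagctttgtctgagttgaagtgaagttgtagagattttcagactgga
The Pcdh20 promoter held CCAAT once on the forward strand, that of Pcdh17 held its reverse complement at 2 places and that of Pcdh18 at 1, where 37.4% of 32851 promoters of this length held the motif on either strand. The motif GGGCGG, searched on both strands and nowhere overlapping the capitals here, had 0 matches in Pcdh20 and 1 each in Pcdh17 and Pcdh18, where 35.7% of promoters held it. GC content was 43.7% in Pcdh20, 65.0% in Pcdh17 and 63.0% in Pcdh18, beside a median of 52.7%. The number of CG dinucleotides was 4, 26 and 23, beside a median of 7.0. Pcdh20 and Pcdh17 were thus unlike each other in base composition.

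Pcdh20 encodes a protocadherin described in nerve cells and in several epithelia. Its signal was 104, 261 and 317 in the double-positive arrays, against 915, 1728 and 1829.7 in the single-positive arrays. Array 1 was lowest within each group, and the groups did not overlap. The mean was 6.56-fold lower, 227 ± 110.3 against 1491 ± 501 (SD, n = 3 each), with a log2 difference of -2.64 (SE 0.48, limma adjusted p = 0.0187). The adjusted p was 0.0935 with single-positive array 2 left out and 0.0964 with array 3 of that group left out. The other probe set of Pcdh20 was too dim to be tested, and its groups overlapped. It had 10.63, 10.68 and 5.75 in the double-positive arrays, against 33.3, 3.18 and 63.15 in the single-positive arrays. Of 7 tested neuron markers 4 fell, Snap25, Uchl1, Prph and L1cam, none rose and 3 did not pass. Snap25 was tested only through its single-positive values, which leaves 3 calls among the 4 markers with both group means above the filter. The summed signal of the list ran from 848 to 1215 over the double-positive arrays, against 4424 to 6054 over the single-positive ones, and the part of nerve cells in the values of Pcdh20 and Cdh4 was not tested. Pcdh9, the neighbour of Pcdh20, had 3 tested probe sets between -0.30 and 0.50, none of which passed.

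Pcdh17, a delta protocadherin that acts in axon growth and synapses in mice, was singled out after its values were seen. On one probe set the signal was 48.1, 172 and 378 in the double-positive arrays, against 456, 1115 and 1375 in the single-positive arrays. On the other it was 15.65, 1011 and 312, against 729.6, 1693 and 2703. Array 1 was again lowest within each group, and the groups overlapped on the second of these alone. The log2 differences were -2.35 (SE 0.66, limma adjusted p = 0.113) and -2.65 (SE 1.03, limma adjusted p = 0.277), large but with wide errors. The first of them passed without double-positive array 3 (limma adjusted p = 0.0424), and both passed with array weights (limma adjusted p = 0.0206 and 0.0440). The first also passed with the replicate number as a block.

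Pcdh12 encodes a protocadherin of endothelial cells and trophoblast, and it too was lower without passing. Its signal was 490.0, 59.9 and 376 in the double-positive arrays, against 860.4, 1221 and 1217 in the single-positive arrays. Double-positive array 2 was far below the others, and the groups did not overlap. The log2 difference was -2.10 (SE 0.64, limma adjusted p = 0.146). In the same arrays the summed endothelium signal was lower as given beside Cdh5, and its part in this value was not tested. Pcdh15, the partner of Cdh23 in tip links, had overlapping groups and a log2 difference of 0.34 (SE 0.47).

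The delta protocadherins, which carry conserved motifs in their tails, gave no call in 16 tested probe sets, of which 8 had a higher and 8 a lower value. Pcdh18 had 8547, 8991 and 5561 on its brightest probe set in the double-positive arrays, against 9290.4, 7378 and 7629 in the single-positive arrays. These overlap, with a log2 difference of -0.10 (SE 0.24). On the next probe set it had 4934, 3587 and 6024, against 6346, 7150.5 and 6685, without overlap, and a log2 difference of -0.50 (SE 0.24, limma adjusted p = 0.411). Pcdh19, an X-linked protocadherin that pairs with N-cadherin, had 8283, 6215 and 5349 in the double-positive arrays, against 6855, 4229 and 6933 in the single-positive arrays. Its 3 tested probe sets gave 0.08 to 0.15, all with overlapping groups. Pcdh7 had 4119, 6698 and 5944 in the double-positive arrays, against 4615, 2387 and 4851 in the single-positive arrays, a difference of 0.54 (SE 0.32, limma adjusted p = 0.564), while its other tested probe set gave -0.07. The value of Pcdh11x, 1.37, had an SE of 0.90 and overlapping groups.

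The clustered protocadherins on the array were almost all of the beta cluster, whose members are intronless genes that differ along the whole protein. Of 28 beta probe sets for 22 genes, 18 were tested for 16 genes, and none passed. Values were below 0 for 12 and above 0 for 6, with a median of -0.14 and a range from -1.54 to 1.74. The groups overlapped for 17 of the 18. Beta genes resemble each other closely, and probe sets whose suffix marks shared probes can read more than 1 of them.

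Pcdhb15, Pcdhb19 and Pcdhb20 were the beta genes with the brightest probe sets. Pcdhb15 had 2527, 3946 and 1858 in the double-positive arrays, against 1077, 796 and 3371 in the single-positive arrays, on a probe set of shared type. Single-positive array 3 was high, and the difference was 0.88 (SE 0.52, limma adjusted p = 0.553). Pcdhb19 had 1916.5, 2116 and 1703, against 1231, 1443 and 1852, and a difference of 0.35 (SE 0.28). The groups overlapped, since single-positive array 3 was above double-positive array 3. Pcdhb20 had 1703, 646 and 2158, against 1439, 2218 and 2133, and a difference of -0.49 (SE 0.45).

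The exception to the overlap was Pcdhb8, singled out after its values were seen. Its signal was 286, 534 and 238 in the double-positive arrays, against 230.05, 32.65 and 58.8 in the single-positive arrays. The lowest double-positive and the highest single-positive value nearly met, and it was tested only through the double-positive values and did not pass (log2 difference 1.74, SE 0.61, limma adjusted p = 0.221). The lone gamma member, Pcdhgc4, had 160.4, 179 and 412, against 64.8, 189.5 and 214, and a difference of 0.62 (SE 0.54). The 6 probe sets listed for several alpha cluster genes at once are not members, and the 2 of them that were tested gave 0.67 and -0.53, neither past the threshold.

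**Figure D4:**
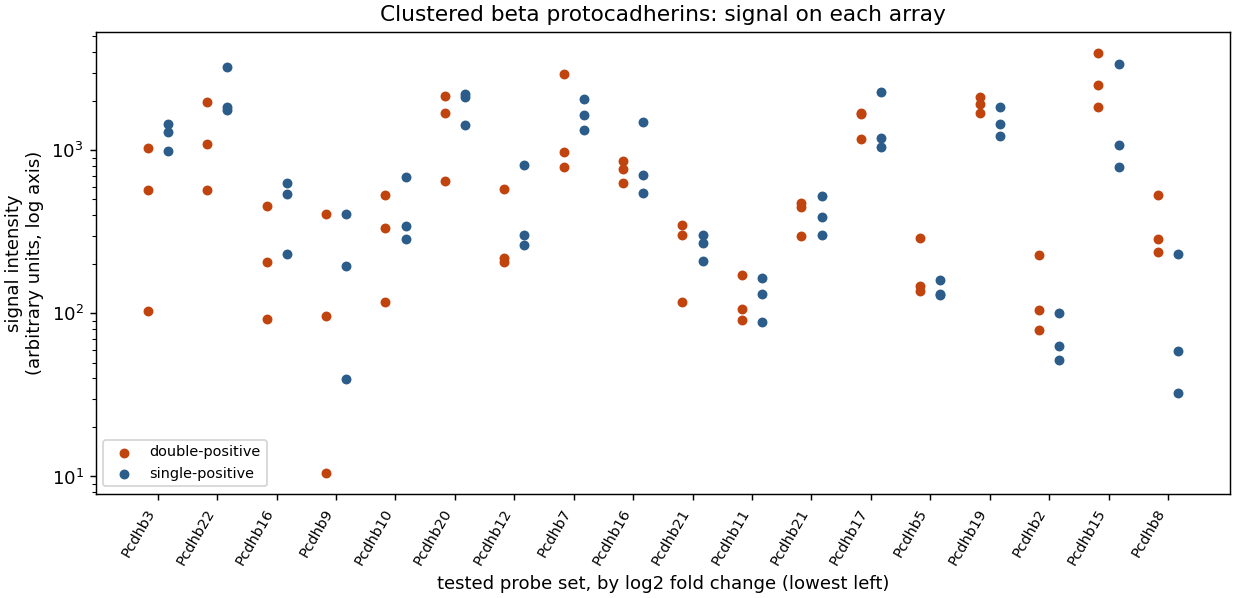
Signal intensity (arbitrary units, log axis) on each array for the 18 tested beta protocadherin probe sets, ordered by log2 difference from Pcdhb3 (-1.54) to Pcdhb8 (1.74), double-positive arrays in orange left of single-positive arrays in blue. The groups overlap for every probe set shown except that of Pcdhb8.

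Probe sets of the same gene mostly went the same way. Of 13 genes with more than 1 tested probe set, 10 had values of 1 sign, and Cdh11, Pcdh7 and Pcdh9 had both signs with no call. The 44 probe sets not tested had signals between 0.36 and 412.9 on single arrays. For 8 of them the double-positive group lay wholly below the single-positive group, and for 1, a probe set of Cdh8, above it, beside 4.32% and 7.40% of all 18015 probe sets not tested. Cdh19, a cadherin of Schwann cells and their precursors, was singled out from these after its values were seen. It had 1.72, 41.7 and 12.3 in the double-positive arrays, against 319, 94.3 and 279 in the single-positive arrays. The groups did not overlap, but the values varied widely within each, and without the filter its log2 difference was -2.52 (SE 0.57, limma adjusted p = 0.0875). Of 8 tested Schwann cell markers 3 fell (Mbp, Erbb3 and Gfra3), none rose and 5 did not pass. Of the 8, 7 had a value below 0, and Sox10 had 0.25 (SE 0.56). The summed signal of Schwann cell markers on the array ran from 1495 to 2882 over double-positive arrays, against 11624 to 15594 over single-positive ones. Their part in the Cdh19 values was not tested.

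Of 32 tested genes of the adherens junction, 1 fell, 31 did not pass and none rose, with a median of -0.18. Over all genes by their brightest probe set, 3.30% were lower and 1.43% higher past the threshold. Rap1a, a small GTPase that strengthens cadherin contacts, had 9194, 5843 and 11154 in the double-positive arrays, against 19797, 19605 and 17709 in the single-positive arrays. The groups were well apart, with a log2 difference of -1.17 (SE 0.24, limma adjusted p = 0.0321). The list had 0 calls without double-positive array 1 or without any 1 of the single-positive arrays, and 3 without double-positive array 3. The catenins, whose values were seen before they were named, gave no call, and their values were near 0 or lower. Ctnnb1 (beta-catenin) had a log2 difference of -0.03 (SE 0.11) and Ctnna1 (alpha-catenin) 0.03 (SE 0.13), each with overlapping groups. Ctnnd1 had -0.26 (SE 0.29) and Jup -0.39 (SE 0.38), again with overlapping groups. Ctnnd2 (delta-catenin, known from neurons) had 144, 299 and 451 in the double-positive arrays, against 759, 1269.5 and 2108 in the single-positive arrays. These did not overlap, and the log2 difference of -2.12 (SE 0.51, limma adjusted p = 0.062) did not pass. Ctnna2 and Ctnna3 were too dim to be tested and had double-positive values wholly below the single-positive ones. Ctnna2 had 55.4, 23.6 and 44.6, against 186, 143 and 178, and Ctnna3 had 10, 26.5 and 9.71, against 149.98, 687 and 51.4.

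Cadherin superfamily genes outside the naming rule include the Fat, Celsr and desmosomal cadherins. Of 15 tested, 1 fell, 14 did not pass and none rose, with a median of -0.36. Dsc2 and Ret were tested only through their single-positive values, and over the 13 others the median was -0.17. By brightest probe set, 3.30% of all genes were lower and 1.43% higher past the threshold. Dsg2, a desmosomal cadherin of epithelia and heart muscle, had 231, 154 and 269 in the double-positive arrays, against 901, 1599.99 and 1496 in the single-positive arrays. Every double-positive array was low, and the log2 difference was -2.47 (SE 0.39, limma adjusted p = 0.0102). Leaving out single-positive array 2 or 3 left the list with 0 calls, leaving out double-positive array 2 gave 2, and leaving out double-positive array 3 gave 3. In the same arrays the summed urothelium signal was lower as given above, and its part in the Dsg2 value was not tested.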

How the data were processed

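RNA of 6 samples was amplified in 2 rounds and hybridised to Affymetrix MOE430 arrays, per the labels' protocols. The deposited table holds linear signal intensity per probe set, made with GCOS per the submitters' processing notes. GCOS's version, its algorithm and its scaling target were not given in the sources used here. With the outer 2% on each side removed, all 6 arrays averaged 1500.01. The deposited intensity values were thus already brought to 1 level, which hides any difference in total RNA. Detection calls were not used here, and the number of arrays limits the precision.

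Samples were grouped by their titles. Gene names came from the platform annotation, in which 34945 of 45037 had 1 symbol, 932 several and 9160 none listed. All 101 member probe sets matched RefSeq genes by Entrez identifier, and 0 symbols changed. No further scaling was applied, and log2(signal + 25.042) was taken, with the 20th percentile of the values as offset. Groups were compared over 27022 probe sets with limma 3.58.1 in R 4.3.3 (eBayes after lmFit, with trended variance and two-sided p-values adjusted by Benjamini-Hochberg). List genes were represented by their brightest probe set. The procedure was tested on simulated data.

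Named were all members past the threshold with the other probe sets of their genes, the 3 genes of brightest probe set in each class, list genes past the threshold, and Actg2 and Acta2. Further genes were picked with their values in view. The members and lists were chosen with earlier results of these data known. Alternatives covered normalization, offset, filter, probe set choice, the variance trend, weighting of arrays, a block for the replicate number, and each array left out in turn. Any pair of arrays shared at most 13 identical values.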

Additional observations from a re-analysis of the deposited data

How the results depend on the processing

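The direction of Cdh1, Cdh5, Cdh4 and Pcdh20 was the same in all 11 alternatives that kept every array and in the 6 that left out 1 array, and the number of members that rose was 0 in all of them. The number that fell was 2 to 4 when 1 array was left out and 3 to 6 otherwise. With array weights both probe sets of Pcdh17 joined the calls, and the total over all probe sets was 1639, against 925 as reported and 414 to 1123 when 1 array was left out. Cdh4 missed the threshold with no filter (adjusted p = 0.0501) and averaged over its probe sets (log2 fold change -1.07, adjusted p = 0.158).

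Whether the replicate numbers in the titles pair the samples cannot be told from the arrays. Deviations of arrays with the same number correlated at 0.092, 0.0253 and -0.0654. Those of arrays with different numbers correlated at -0.132 to 0.126, so this measure does not decide it. With the replicate number as a block 4 members fell. Cdh4 then had an adjusted p of 0.0504, and the dimmer probe set of Pcdh17 passed (adjusted p = 0.0268).

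The single call among adherens junction genes became 2 with quantile normalization, a filter at the 60th percentile, 1 probe set or a mean per gene, array weights, and the replicate block. It became 0 with median centring, no filter or no variance trend, and 0 to 3 when 1 array was left out. The count of other cadherin superfamily genes was 0 to 3 when 1 array was left out. The cause was not tested.

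Small differences changed sign. With array weights Cdh23 had -0.25 and Pcdh18 0.0049, with median centring Ctnnb1 had 0.022, and with quantile normalization Ctnna1 had -0.038. When 1 array was left out, Cdh10 ranged from -0.22 to 0.72, Cdh23 from -0.20 to 0.60, Pcdh18 from -0.22 to 0.12, Pcdh19 from -0.083 to 0.29, Pcdh15 from -0.018 to 0.66, Pcdhb20 from -0.83 to 0.016, Ctnna1 from -0.028 to 0.093 and Acta2 from -0.20 to 0.063. Averaged over its probe sets, Acta2 had -2.48 (adjusted p = 0.00155). Dim signals limit the tests, and 44 of 101 members were not tested.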
